A study of Homo sapiens with 24 samples.

Results

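The insulin-like growth factor (IGF) axis of A549 cells was followed through 10 genes, which encode the receptors IGF1R, INSR and IGF2R, the receptor substrates IRS1 and IRS2, and the binding proteins IGFBP1, IGFBP3, IGFBP4, IGFBP6 and IGFBP7. They were chosen by name, with earlier results of these data known, and all 10 of the 10 have a row among the 22026 genes of the mRNA table. A549 is an established human lung adenocarcinoma line. The cells were kept in CAF conditioned medium or in control medium and collected at 3, 6, 12, 24, 48 and 72 h, with 1 mRNA library per medium and time, so that there are 6 CAF medium and 6 control medium libraries. The labels do not spell out CAF, which in this field usually stands for cancer-associated fibroblast, and they do not say which cells conditioned the CAF medium or what the control medium held. The design text speaks of 2 biological replicates for each sample, and the values used here do not show them separately.

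IGF1 and IGF2 are secreted growth factors that bind IGF1R, a receptor tyrosine kinase, while insulin binds the closely related INSR. Both receptors phosphorylate the docking proteins IRS1 and IRS2, which pass the signal to PI3 kinase and AKT, and AKT keeps FOXO transcription factors out of the nucleus. IGF2R, also known as the cation-independent mannose 6-phosphate receptor, takes up IGF2 for breakdown in lysosomes and does not signal through this cascade. The binding proteins hold IGFs outside the cell and either keep them from the receptor or carry and release them, and proteases such as PAPPA free the ligand by cutting the binding protein.

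Values are RPKM as the authors deposited them, a level per gene length and per mapped read. A log2 change is on the scale of log2(RPKM + 0.5), CAF medium minus control medium, and understates the change of low genes. With a single library for each medium and time, the medium effect was tested across the 6 times, pairing the CAF medium and control libraries of a time. Adjusted p is limma's, by Benjamini-Hochberg over the 12029 genes whose mean reached 1 RPKM, and calls are at 0.05. It is not recorded whether the cultures were separate, and p-values therefore measure only how far these libraries differ, which may in part be a technical spread. The spread behind the test of the medium is how its effect varies among times, so it also holds any real change of the effect with time. Depth worked out from the values was 26.2 to 40.7 M reads in CAF medium and 23.7 to 40.1 M reads in control medium, and it was lower at 3 to 12 h (23.7 to 29.0 M) than at 24 to 72 h (34.1 to 40.7 M). The mean Pearson correlation of a library with the other 11 was 0.937 to 0.973 across genes, lowest in the CAF medium library of 48 h. The epithelial keratin genes KRT7, KRT8 and KRT18 were at 676.58 RPKM or more in every library. Of the other epithelial markers KRT19 was at 4.09 to 34.05 RPKM in CAF medium and 1.56 to 27.63 RPKM in control medium, CDH1 at 6.40 to 40.04 RPKM in CAF medium and 4.68 to 23.58 RPKM in control medium, and EPCAM at 0.66 to 6.46 RPKM in CAF medium and 0.24 to 3.30 RPKM in control medium. The lung lineage markers NKX2-1, SFTPB and SFTPC did not pass 0.18 RPKM. As the RNA came from whole cultures, less RNA per cell and fewer cells of a kind cannot be told apart.

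The 10 transcripts spanned a wide range of levels. By mean RPKM over the 12 libraries the order was IGFBP4 (744), IGFBP7 (146), IGFBP3 (130.0), IGFBP6 (51.96), IGF1R (15.3), IGF2R (14.8), IRS1 (13.9), IRS2 (7.69), IGFBP1 (6.19) and INSR (2.01). IGFBP4 was above 99.4% of the tested genes and INSR above 13.3%. IGFBP4 was above IGFBP7 in 12 of 12 libraries, by a mean ratio of 4.94. The same held in 12 of 12 libraries for IGFBP3 over IGFBP6, IGFBP6 over IGF1R, IRS1 over IRS2 and IGFBP1 over INSR. The neighbours IGFBP7 and IGFBP3 kept that order in 8 of 12 libraries, IGF1R and IGF2R in 6, IGF2R and IRS1 in 8, and IRS2 and IGFBP1 in 9. These 4 pairs therefore did not hold a single order over the libraries. For IGFBP7 over IGFBP3 the ratio was 1.352 to 3.515 in CAF medium and 0.375 to 1.631 in control medium, so IGFBP7 was the higher in every CAF medium library. Each member was covered by at least 149 implied reads in every library. That lowest count was found for IGFBP1 at 12 h in both media. In CAF medium it gave 3.36 RPKM with an exact Poisson 95% interval of 2.84 to 3.94, which covers counting error only.

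**Figure D1:**
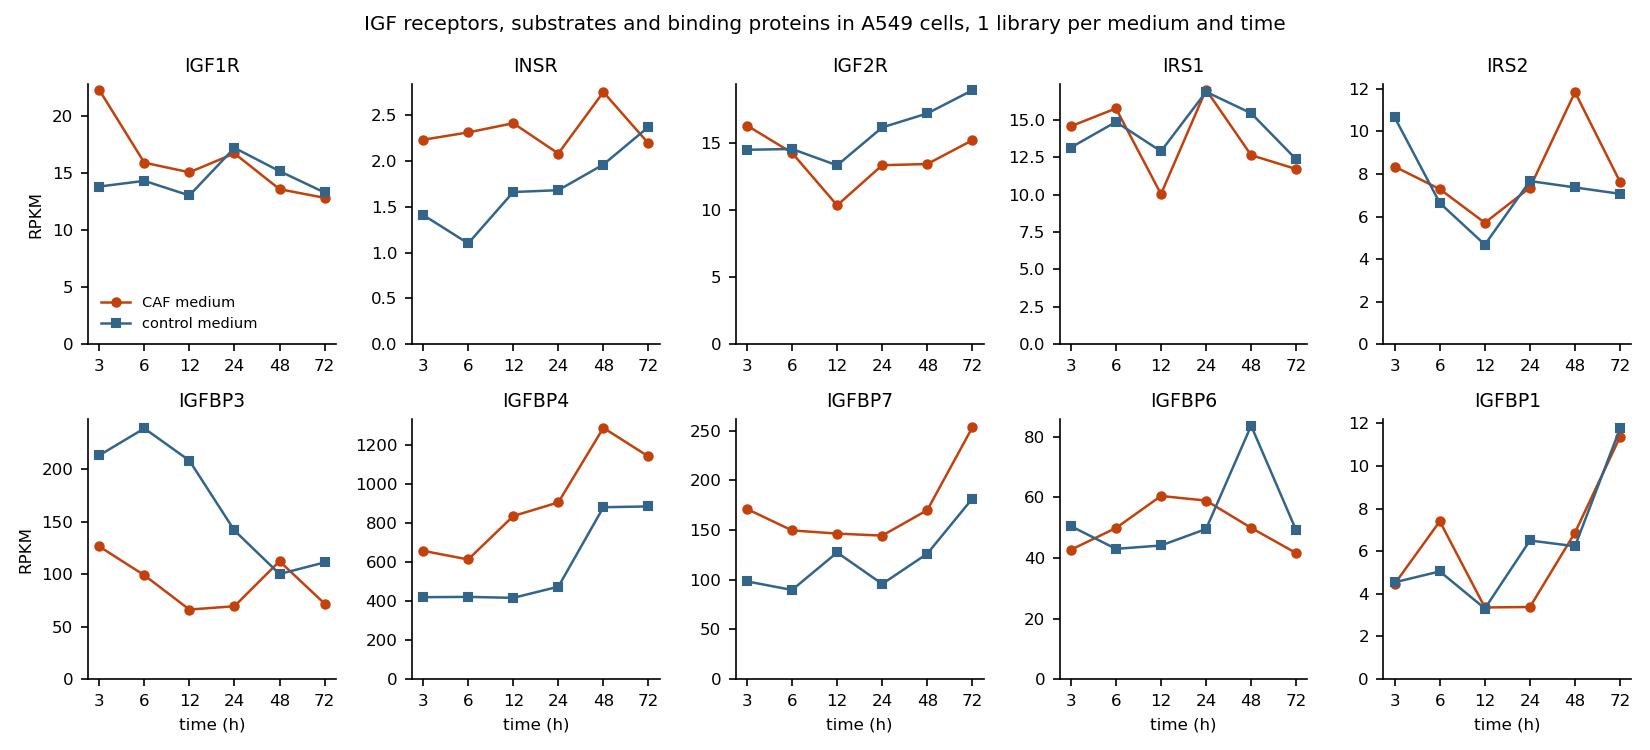
RPKM of each of the 10 genes (y axis, from 0) against time in hours (x axis, evenly spaced), with 1 library per point, circles for CAF medium and squares for control medium. IGFBP4 and IGFBP7 are higher in CAF medium at 6 of 6 times, and IGFBP3 is lower at all times but 48 h.

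The question for the medium was which of these genes differed between CAF and control medium across the 6 times. Of the 10 genes, IGFBP4 and IGFBP7 rose and IGFBP3 fell, and the other 7 did not pass the test. That is 3 of 10 called, where 10.2% of the 12029 tested genes were called, 6.06% higher and 4.13% lower. As the 10 were chosen with earlier results known, these shares are set side by side without a test. With no filter on low values limma called 0 of 22026 genes and these 3 stood at an adjusted p of 0.0689 to 0.0918, and without the time term it again called 0, with these 3 at 0.331 to 0.333. None of the 10 had CAF medium and control medium values that were fully apart over the times, which 0.357% of the tested genes had.

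The binding protein genes that passed are described first, with the 250 bases before the transcript start of IGFBP3 and IGFBP4, shown because these neighbours in function moved in opposite directions, and of INSR and IRS2, shown for contrast as genes that did not pass. The sequences are those of RefSeq on GRCh38.p14, a build other than the hg19 named for the RPKM values, and they are written 5′ to 3′ on the strand of the gene. Capitals mark TATA boxes (the letters TATAAA as well as TATATA), GC boxes (GGGCGG), an insulin response motif (CAAAACA), a FOXO motif (GTAAACA) and E-boxes (CACGTG), each searched on both strands, and neighbouring GC boxes may overlap. The IGFBP3 window is chr7:45921273-45921522 on the minus strand, that of IGFBP4 chr17:40443200-40443449 on the plus strand, that of INSR chr19:7294415-7294664 and that of IRS2 chr13:109786584-109786833, both on the minus strand.
IGFBP3: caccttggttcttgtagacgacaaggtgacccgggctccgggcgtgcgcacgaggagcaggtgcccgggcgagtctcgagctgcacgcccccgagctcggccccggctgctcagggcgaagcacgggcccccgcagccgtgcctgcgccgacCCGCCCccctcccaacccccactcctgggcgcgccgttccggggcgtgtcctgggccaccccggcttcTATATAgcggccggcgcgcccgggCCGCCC
IGFBP4: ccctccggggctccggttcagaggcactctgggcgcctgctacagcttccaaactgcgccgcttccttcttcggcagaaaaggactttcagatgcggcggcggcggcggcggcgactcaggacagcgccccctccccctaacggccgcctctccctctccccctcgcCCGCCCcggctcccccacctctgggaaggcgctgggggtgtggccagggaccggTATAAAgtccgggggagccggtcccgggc
INSR: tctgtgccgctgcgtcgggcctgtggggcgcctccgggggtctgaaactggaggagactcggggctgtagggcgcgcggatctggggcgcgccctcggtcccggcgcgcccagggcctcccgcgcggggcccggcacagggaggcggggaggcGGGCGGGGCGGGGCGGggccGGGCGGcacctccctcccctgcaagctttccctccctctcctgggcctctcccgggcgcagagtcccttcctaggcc
IRS2: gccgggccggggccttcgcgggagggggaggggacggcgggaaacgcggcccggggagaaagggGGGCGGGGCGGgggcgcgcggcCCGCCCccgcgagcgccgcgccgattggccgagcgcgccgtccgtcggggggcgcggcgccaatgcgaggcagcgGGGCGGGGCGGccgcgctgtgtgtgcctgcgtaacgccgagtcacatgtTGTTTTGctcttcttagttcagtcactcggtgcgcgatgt

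IGFBP3 and IGFBP4 each held 1 TATA box, starting at position -30 and -29 from the transcript start, and 12.8% of the 35116 RefSeq windows of the same length held one on either strand. Of the 8 members with an entry, no other held a TATA box in this window. IGFBP1 and IGFBP7 had no entry, so the window of IGFBP7, which was called, could not be looked at. GC boxes, found in 42.6% of all windows, were present in all 8, with 2 in IGFBP3, 1 in IGFBP4, 4 in INSR and 5 in IRS2. The 8 windows had a GC content of 61.2 to 81.2%, beside a median of 58% over all windows, so these shares are not of like sequences. The insulin response motif was found once, in IRS2 at -40 (4.30% of all windows), and the FOXO motif once, in IGFBP6 at -186 (2.98%). IGF2R held 3 E-boxes (6.34% of all windows had at least 1). A match to these letters is a description and not evidence of binding.

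IGFBP3, the main carrier of IGFs in serum, was lower in CAF medium at 5 of 6 times. In CAF medium it measured 126.53, 99.08, 66.32, 69.50, 112.43 and 72.00 RPKM at 3, 6, 12, 24, 48 and 72 h, against 213.46, 239.16, 208.45, 141.76, 100.26 and 111.29 RPKM in control medium. The control level was high up to 12 h and lower later, while the CAF medium level was already below 130 RPKM at 3 h, and the 2 media crossed at 48 h. Over the 6 times it averaged 91.0 ± 25.4 RPKM in CAF medium and 169 ± 58.7 in control medium (SD, n = 6 times each). The log2 change was -0.86 ± 0.19 (SE, 95% interval -1.275 to -0.441, limma adjusted p = 0.0236), a fold of 0.552. Among the members it was the one gene at least 2-fold lower at a single time, at 6 h (log2 -1.27), 12 h (-1.65) and 24 h (-1.02), where 0.973%, 1.33% and 0.707% of the tested genes were that much lower. At 3, 48 and 72 h no member passed 2-fold.

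IGFBP3 also fell over the early times alone. Over 3 to 12 h its log2 change was -1.22 ± 0.22 (SE, limma adjusted p = 0.0177), a call lost without the 6 or 12 h pair (0.131 and 0.129). Over 24 to 72 h it was -0.49 ± 0.22 (limma adjusted p = 0.217), and the late minus early difference was 0.73 ± 0.31 (limma adjusted p = 0.404), so a change of the effect with time was not shown. Without the 6, 12 or 24 h pair the fall over the 6 times missed the threshold (limma adjusted p = 0.0799, 0.0734 and 0.0777), with a log2 change of -1.06 to -0.70 whichever time was left out. Leaving out 6, 12 or 24 h also left 34, 35 and 117 calls among all genes, beside 1226 with all times.

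IGFBP3 is a known hypoxia-inducible gene, and a list of 6 hypoxia genes (CA9, VEGFA, ADM, NDRG1, ANKRD37 and EGLN3) was read beside it. Their summed level was 103, 84.1, 61.1, 81.6, 200 and 113 RPKM in CAF medium at 3, 6, 12, 24, 48 and 72 h, against 178, 148, 119, 118, 97.3 and 87.4 RPKM in control medium. It was lower in CAF medium at 3 to 24 h, as IGFBP3 was, and higher at 48 and 72 h. IGFBP3 was also higher at 48 h (log2 0.165) but was lower at 72 h (log2 -0.625). The part of the hypoxia genes in the IGFBP3 result was not tested. The summed level of 5 proliferation genes (MKI67, TOP2A, CCNB1, PCNA and MCM2) was 173 to 502 RPKM in CAF medium and 283 to 544 RPKM in control medium, higher in CAF medium at 2 of 6 times, and its part in the results was not tested either.

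IGFBP4, a binding protein that mostly holds IGFs away from their receptor, was the most abundant of the 10 transcripts and was higher in CAF medium at 6 of 6 times, which 8.97% of the tested genes were. It measured 656.60, 612.37, 834.63, 904.59, 1286.28 and 1139.60 RPKM in CAF medium at 3, 6, 12, 24, 48 and 72 h, against 419.37, 420.75, 415.87, 472.85, 879.78 and 883.99 RPKM in control medium. The control level was nearly flat to 24 h and higher at 48 and 72 h, whereas the CAF medium level was already above its early values at 12 h. The means were 906 ± 266 RPKM in CAF medium and 582 ± 233 in control medium (SD, n = 6 times each). The log2 change was 0.67 ± 0.105 (SE, 95% interval 0.442 to 0.905, limma adjusted p = 0.0128), a fold of 1.595. It reached 2-fold at 12 h (log2 1.004), where 2.96% of the tested genes were at least 2-fold higher.

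The rise of IGFBP4 was found over both the early and the late times. Its log2 change was 0.73 ± 0.15 over 3 to 12 h (SE, limma adjusted p = 0.0264) and 0.62 ± 0.15 over 24 to 72 h (limma adjusted p = 0.0481), and the late minus early difference was -0.11 ± 0.22 (limma adjusted p = 0.875). The call over the 6 times was lost without the 6 h pair (limma adjusted p = 0.0501) and the 12 h pair (0.0533), and so was the call over 3 to 12 h (0.128 and 0.157). The call over 24 to 72 h was kept when the 3 h pair was left out and lost without any other time (limma adjusted p = 0.0595 to 0.257).

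IGFBP7, a secreted relative with low affinity for IGFs that is abundant in vessels and stroma, was also higher in CAF medium at 6 of 6 times. In CAF medium it measured 171.07, 149.51, 146.33, 144.28, 169.91 and 253.06 RPKM at the 6 times, against 98.23, 89.65, 127.33, 95.68, 126.09 and 181.46 RPKM in control medium. The highest value in each medium was that of 72 h, and the gap was narrowest at 12 h. The log2 change was 0.54 ± 0.10 (SE, 95% interval 0.322 to 0.755, limma adjusted p = 0.0163), a fold of 1.45. It was lost without the 6 h pair (limma adjusted p = 0.0638) or the 24 h pair (0.0598).

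Over 3 to 12 h IGFBP7 rose by log2 0.58 ± 0.14 (SE, limma adjusted p = 0.0424), and with IGFBP3 and IGFBP4 it made up the 3 of 10 members called there, where 5.63% of the tested genes were called. That call was kept when the 24 h pair was left out and was lost without any other time (limma adjusted p = 0.0522 to 0.235). Over 24 to 72 h its log2 change was 0.50 ± 0.14 (limma adjusted p = 0.0776), and IGFBP4 was the 1 of 10 members called, where 4.09% of the tested genes were. With no filter on low values, and likewise without the time term, no member passed over the early or the late times. For the late minus early difference limma called 0 of the 10 members, with 1 at an unadjusted p under 0.05 (IGFBP3), where 0.416% of the tested genes were called.

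Both IGFBP4 and IGFBP7 are abundant in fibroblasts, so fibroblast markers were read beside them. The summed level of 12 of 12 listed fibroblast genes was 11.3 to 17.4 RPKM in CAF medium and 8.31 to 16.4 RPKM in control medium, and it was higher in CAF medium at 5 of 6 times; its part in the results was not tested. The defining collagen genes COL1A2 and COL3A1 were at or near 0, at most 0.12 and 0.16 RPKM in any library, and PDGFRB and POSTN reached at most 0.07 and 0.11 RPKM. Of the 12 genes COL1A1 (2.60 to 5.81 RPKM in CAF medium, 1.37 to 4.27 in control medium), FAP and FBN1 were the ones that passed 4 RPKM. In the list of 6 endothelial and blood markers 5 were at 0.08 RPKM or less, and CD68 made up nearly all of the sum.

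IGFBP6, which prefers IGF2 over IGF1, measured 42.70, 49.89, 60.47, 58.95, 49.94 and 41.60 RPKM in CAF medium at the 6 times, against 50.52, 43.01, 44.12, 49.57, 83.68 and 49.12 RPKM in control medium. The control library of 48 h stood alone at the top, and the rest of the values overlapped. The log2 change was -0.05 (95% interval -0.37 to 0.27, limma adjusted p = 0.841), and it was 0.09 without the 48 h pair (limma adjusted p = 0.676).

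IGFBP1, a binding protein that insulin represses in liver, measured 4.47, 7.40, 3.36, 3.38, 6.87 and 11.36 RPKM in CAF medium at the 6 times, against 4.54, 5.05, 3.31, 6.5, 6.23 and 11.76 RPKM in control medium. The media were close at 3, 12 and 72 h, CAF medium was higher at 6 h, and at 24 h it was lower (log2 -0.85, with 1.4% of the tested genes further down). The log2 change over the 6 times was -0.04 (95% interval -0.37 to 0.28, limma adjusted p = 0.869), and it was 0.12 without the 24 h pair (limma adjusted p = 0.589).

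**Figure D2:**
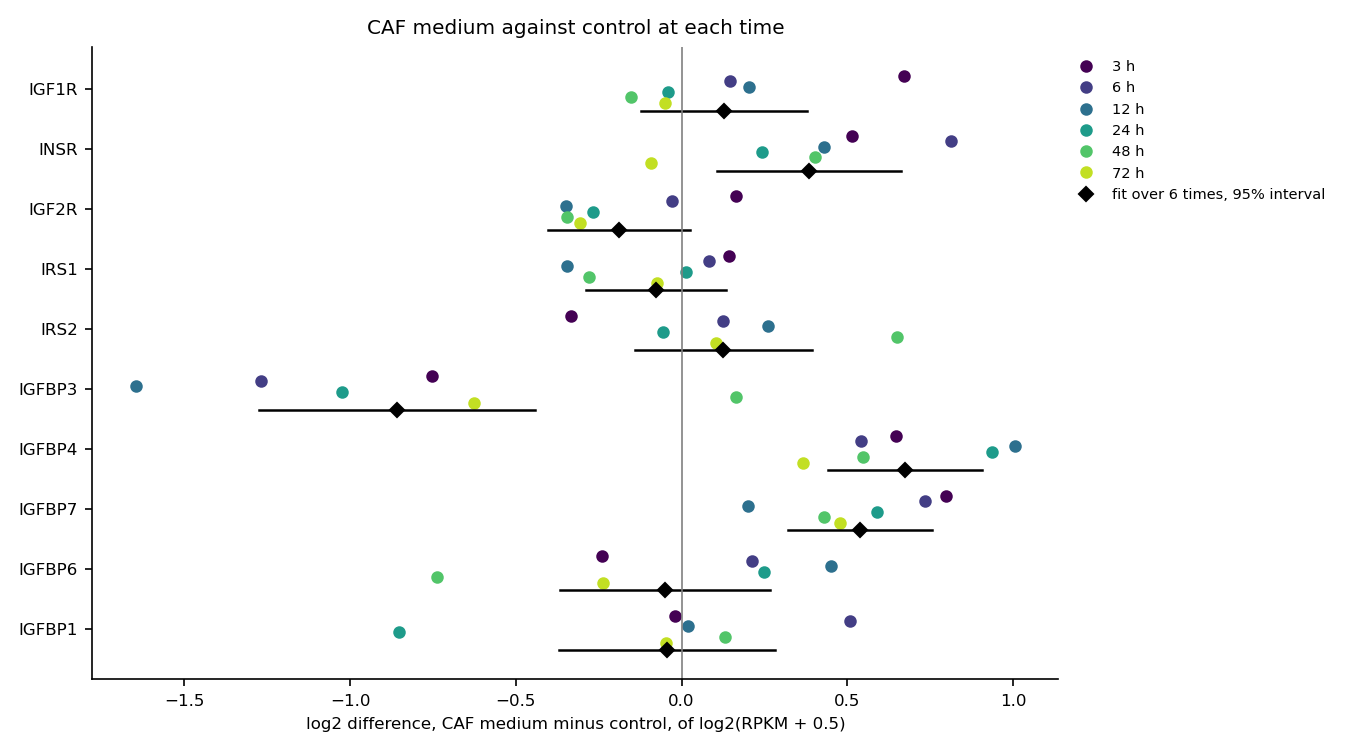
Log2 difference between CAF medium and control (x axis, of log2(RPKM + 0.5)) for the 10 genes (y axis), with 1 point per time and, as black diamonds, the fit over the 6 times with its 95% interval. The intervals of IGFBP4, IGFBP7 and INSR lie above 0 and that of IGFBP3 below it; INSR missed the threshold after adjustment (adjusted p = 0.0732).

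INSR, the insulin receptor, was the lowest of the 10 transcripts. It measured 2.23, 2.31, 2.41, 2.08, 2.75 and 2.19 RPKM in CAF medium at the 6 times, against 1.41, 1.10, 1.66, 1.68, 1.96 and 2.37 RPKM in control medium. CAF medium was higher at 5 of 6 times, and the media met at 72 h. The log2 change was 0.39 ± 0.13 (SE, 95% interval 0.11 to 0.66, limma adjusted p = 0.0732) over the 6 times and 0.59 ± 0.16 over 3 to 12 h (limma adjusted p = 0.0591), neither past the threshold. It passed over the 6 times when the 72 h pair was left out (log2 0.48, limma adjusted p = 0.0381). Over 3 to 12 h it passed when the 24 h pair was left out (0.0493). With any other time left out INSR did not pass, at a limma adjusted p of up to 0.21 and 0.31. Quantile normalization gave 0.11 over the 6 times and 0.114 over 3 to 12 h.

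IGF1R, the signalling receptor for both IGFs, measured 22.29, 15.91, 15.07, 16.72, 13.59 and 12.83 RPKM in CAF medium at the 6 times, against 13.82, 14.32, 13.04, 17.21, 15.17 and 13.30 RPKM in control medium. The CAF medium library of 3 h was the highest of the 12 (log2 0.67 above its control, above 95.6% of the tested genes), and from 24 h on CAF medium was slightly lower. Over the 6 times the log2 change was 0.13 (95% interval -0.12 to 0.38, limma adjusted p = 0.472), and it was 0.02 without the 3 h pair. The ratio of INSR to IGF1R transcripts was 0.1 to 0.202 in CAF medium and 0.0768 to 0.178 in control medium.

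IGF2R, the scavenger receptor for IGF2, measured 16.31, 14.27, 10.36, 13.35, 13.44 and 15.21 RPKM in CAF medium at the 6 times, against 14.50, 14.56, 13.34, 16.17, 17.21 and 18.94 RPKM in control medium. Its CAF medium value was below that of control medium at all times but 3 h, with a log2 change of -0.19 (95% interval -0.40 to 0.03, limma adjusted p = 0.218).

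The docking proteins did not pass the test. IRS1 measured 14.56, 15.75, 10.03, 17.00, 12.63 and 11.70 RPKM in CAF medium at the 6 times, against 13.14, 14.85, 12.89, 16.86, 15.43 and 12.35 RPKM in control medium (log2 -0.08, 95% interval -0.29 to 0.13, limma adjusted p = 0.617). IRS2 measured 8.35, 7.29, 5.71, 7.36, 11.85 and 7.63 RPKM in CAF medium, against 10.66, 6.64, 4.68, 7.67, 7.37 and 7.07 RPKM in control medium (log2 0.13, 95% interval -0.14 to 0.39, limma adjusted p = 0.518). For both genes the values of the media overlapped. IRS1 was above IRS2 in every library, by a ratio of 1.07 to 2.31 in CAF medium and 1.23 to 2.75 in control medium.

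Since RPKM is per length, the make-up of the binding protein transcripts can be compared within a library. The 7 genes IGFBP1 to IGFBP7 summed to 922 to 1631 RPKM in CAF medium and 770 to 1242 RPKM in control medium, and the sum was higher in CAF medium at each time. IGFBP4 took 65.3 to 78.9% of it in CAF medium (median 74.8%) and 51.8 to 73.4% in control medium (median 57.2%). IGFBP3 took 4.72 to 12.6% in CAF medium (median 6.42%) and 8.36 to 29.8% in control medium (median 22.2%). IGFBP7 took 10.4 to 17.0% in CAF medium and 10.5 to 15.9% in control medium.

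The ratio of IGFBP4 to IGFBP3, which does not depend on the scaling of a library, was 5.19, 6.18, 12.6, 13.0, 11.4 and 15.8 in CAF medium at 3, 6, 12, 24, 48 and 72 h. In control medium it was 1.965, 1.76, 1.995, 3.34, 8.78 and 7.94. CAF medium was higher at 6 of 6 times, and the ratio was larger at 72 h than at 3 h in both media. The ratio combines genes already described as moving in opposite directions, so it is given without a test.

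**Figure D3:**
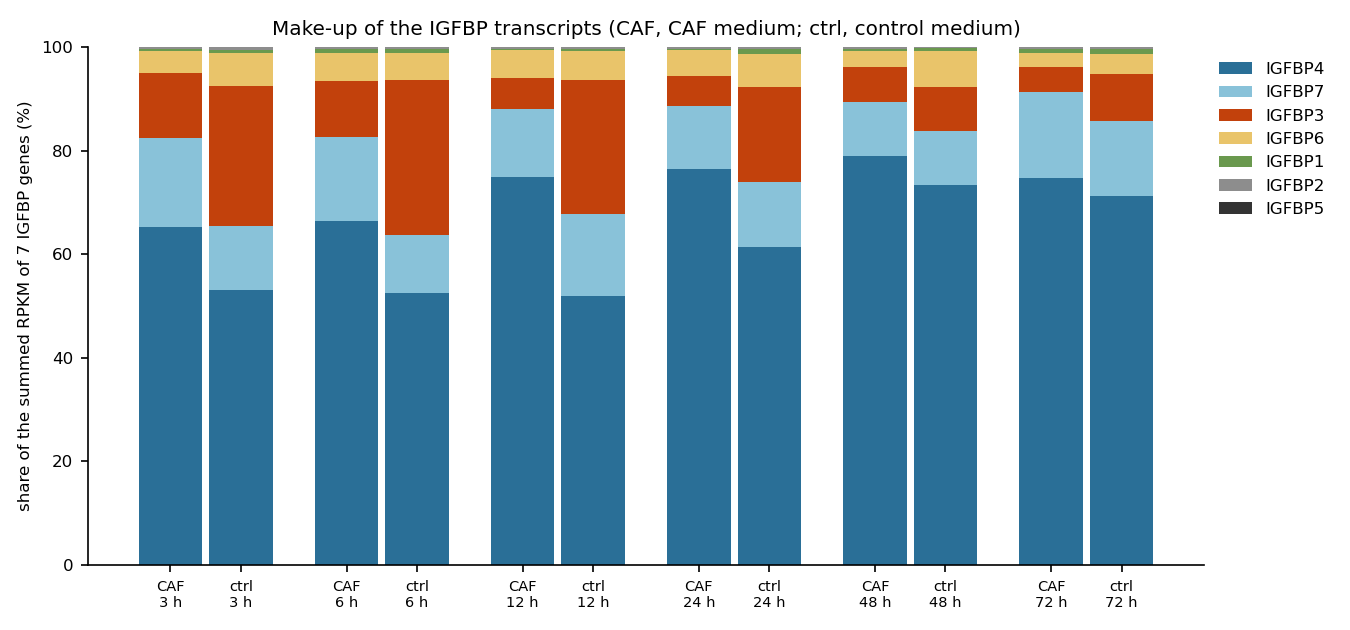
Share of the summed RPKM of 7 IGFBP genes (y axis, percent) in each library, with the CAF medium bar (CAF) left of the control bar (ctrl) at each time (x axis). The IGFBP3 share is 4.72 to 12.6% in CAF medium and 8.36 to 29.8% in control medium, and IGFBP4 takes at least 51.8% of the sum in all 12 libraries.

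Change with time was tested as a slope per doubling of the hours on the 6 averages of the libraries of a time. IGFBP4 rose by log2 0.24 ± 0.05 per doubling (SE, limma adjusted p = 0.00725) and IGFBP3 fell by 0.19 ± 0.04 on the log2 scale (limma adjusted p = 0.00799), 2 of 10 members called where 24.7% of the tested genes were. The IGFBP3 call was lost without the 72 h pair (limma adjusted p = 0.0537). The slopes of IGFBP1 and IGFBP7 were 0.20 ± 0.09 and 0.13 ± 0.05 (limma adjusted p = 0.107 and 0.11), and those of IGF1R, IGF2R, INSR, IRS1, IRS2 and IGFBP6 lay between -0.06 and 0.08. The IGF1R slope was -0.06 and the INSR slope 0.08.

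The remaining ligands, binding proteins and receptors of the family were low. IGF1 reached at most 0.09 RPKM and IGF2 at most 0.05 RPKM in any library. The read-through model INS-IGF2, which overlaps IGF2 so that their reads may be shared, measured 0.21 to 2.05 RPKM in CAF medium and 0.32 to 0.83 RPKM in control medium, and was named after its values were seen. IGFALS, the partner of IGFs and IGFBP3 in serum, reached 0.16 RPKM, the insulin receptor relative INSRR 0.07 RPKM and the substrate IRS4 0.01 RPKM. IGFBP5 measured 0.05 to 0.63 RPKM in CAF medium and 0.03 to 0.36 RPKM in control medium, below the level tested. IGFBP2 measured 3.33 to 6.12 RPKM in CAF medium and 2.96 to 4.62 RPKM in control medium (log2 0.19, limma adjusted p = 0.396).

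Of 55 listed genes around the axis 44 were tested, and over the 6 times 5 rose and 0 fell by limma, with a median log2 change of 0.04 beside 0.002 over all tested genes, of which 6.06% were called higher and 4.13% lower. RICTOR, FOXO1, FOXO4 and IGF2BP2 were among them. The 9 adaptors and inhibitors had 0 calls, and GRB2, SHC1 and SOS1, which link receptors to RAS, had log2 changes of 0.03, 0.02 and 0.003. The kinase cascade had 4 of 23 tested genes up, and AKT1, AKT2 and MTOR were at 0.06, 0.04 and -0.06 (limma adjusted p = 0.717, 0.794 and 0.717). Without 6, 12 or 24 h the count of 5 went to 0, since none of the 5 genes passed without those pairs. It was also 0 with no filter on low values and without the time term.

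FOXO1, a factor that insulin and IGF signals hold in check, measured 2.57, 2.52, 2.62, 3.28, 5.27 and 3.51 RPKM in CAF medium at the 6 times, against 1.88, 1.32, 1.58, 1.78, 2.77 and 2.98 RPKM in control medium. It was higher in CAF medium at 6 of 6 times and rose by log2 0.57 ± 0.11 (SE, limma adjusted p = 0.019). FOXO4, a further member of that family, measured 2.39, 2.65, 3.75, 3.83, 4.73 and 5.82 RPKM in CAF medium, against 1.44, 0.65, 0.99, 1.15, 3.32 and 4.72 RPKM in control medium, and rose by log2 0.94 ± 0.18 (limma adjusted p = 0.0178). RICTOR, a subunit of mTOR complex 2, rose by log2 0.45 (5.11 RPKM on average in CAF medium and 3.59 in control medium, limma adjusted p = 0.0326). IGF2BP2, an RNA-binding protein named for its binding of IGF2 mRNA, rose by log2 0.39 (16.3 RPKM on average in CAF medium and 12.4 in control medium, limma adjusted p = 0.0211). FOXO1, FOXO4 and IGF2BP2 lost their calls without 6, 12 or 24 h (limma adjusted p up to 0.0677, 0.0665 and 0.0784). RICTOR lost its call without 5 of the 6 times (up to 0.108). On averages of both media FOXO1 and FOXO4 also rose with time (limma adjusted p = 0.0405 and 0.00875). Their slopes were log2 0.16 and 0.30 per doubling of the hours. The slope call was lost without 6, 48 or 72 h for FOXO1 and without 72 h for FOXO4.

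Among the proteins that act on IGFBPs, PAPPA was called over 24 to 72 h and its inhibitor STC2 over 3 to 12 h; whether the 2 genes differ from each other was not tested. PAPPA, the metalloprotease that cuts IGFBP4, measured 32.26, 37.62, 43.04, 56.86, 91.46 and 97.36 RPKM in CAF medium at the 6 times, against 43.25, 40.26, 42.74, 44.13, 52.07 and 57.59 RPKM in control medium. It was lower in CAF medium at 3 and 6 h and higher from 24 h on, and over 24 to 72 h it rose by log2 0.64 ± 0.14 (SE, limma adjusted p = 0.0301), a call lost without the 48 or 72 h pair (limma adjusted p up to 0.256). Its late minus early difference was 0.81 and missed the threshold (limma adjusted p = 0.118). Its level also rose with time, by log2 0.23 per doubling of the hours (limma adjusted p = 0.00389).

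STC2, stanniocalcin 2, which blocks PAPPA, measured 6.94, 6.87, 4.2, 7.66, 19.97 and 13.61 RPKM in CAF medium, against 15.35, 13.84, 5.77, 6.39, 9.61 and 7.71 RPKM in control medium. It was lower in CAF medium at 3, 6 and 12 h and higher at 24, 48 and 72 h. It fell by 0.82 ± 0.18 on the log2 scale over 3 to 12 h (SE, limma adjusted p = 0.0273), had a log2 change of 0.68 over 24 to 72 h (limma adjusted p = 0.0541), and the late minus early difference was 1.50 ± 0.25 (limma adjusted p = 0.0385). The difference was lost without any time but 24 h, and the early fall without 3, 6 or 12 h (limma adjusted p up to 0.189 and 0.185). The calls of PAPPA over 24 to 72 h and of STC2 were also lost with no filter on low values and without the time term. Over the 6 times PAPPA and STC2 did not pass (log2 0.24 and -0.07), nor did STC1, HTRA1 and FURIN (0.15, 0.19 and 0.23). STC1, HTRA1 and FURIN passed over neither the early nor the late times. For STC1 the log2 change was -0.34 over 3 to 12 h (limma adjusted p = 0.37) and 0.645 over 24 to 72 h (0.128). The late minus early difference of STC1 was 0.99 (limma adjusted p = 0.253).

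**Figure D4:**
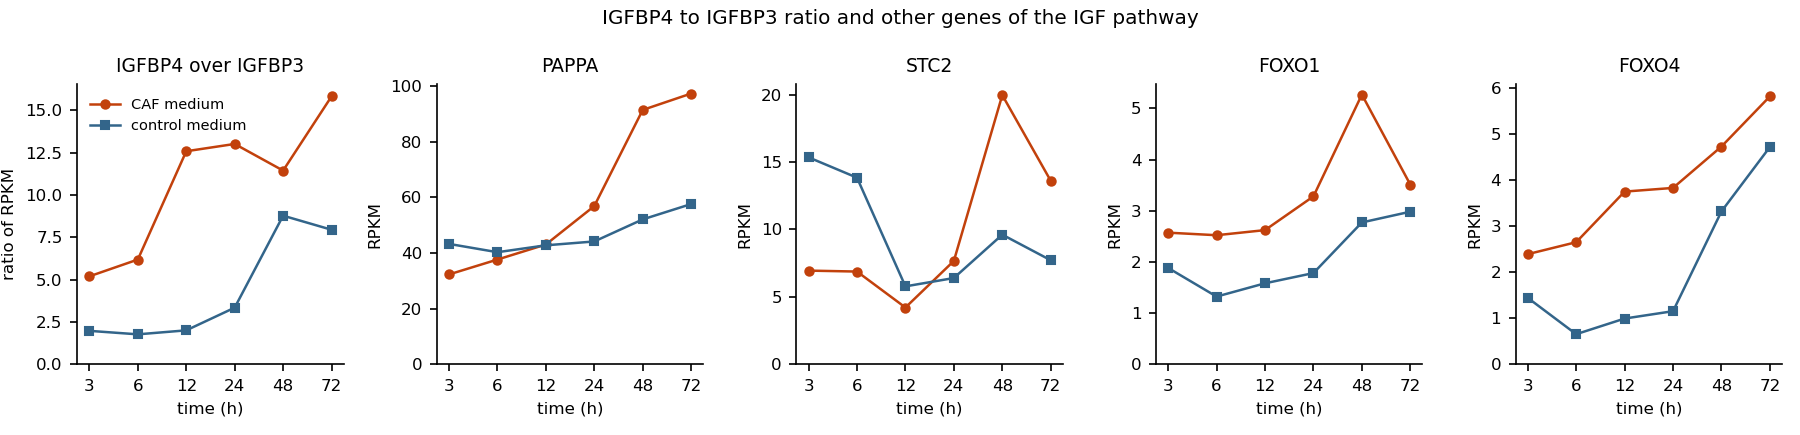
Ratio of IGFBP4 to IGFBP3 RPKM, and RPKM of PAPPA, STC2, FOXO1 and FOXO4 (y axes, from 0) against time in hours, with 1 library per point, circles for CAF medium and squares for control medium. The ratio, FOXO1 and FOXO4 are higher in CAF medium at each time, and STC2 is lower at 3 to 12 h and higher at 24 to 72 h.

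IRS2 and IGFBP1 are known FOXO targets in liver, so a list of 23 other genes reported as FOXO targets in various cells was read beside them. Of these 19 were tested, and over the 6 times 7 rose and 0 fell by limma, with a median log2 change of 0.33 beside 0.002 over all tested genes, 6.06% of which were called higher. The 7 were TXNIP (2.39), PDK4 (1.01), BCL6 (0.88), PPARGC1A (0.78), CDKN1B (0.55), CITED2 (0.45) and RICTOR (0.45), given as log2 changes. RICTOR is also among the genes around the axis called above. Of the 12 tested genes that did not pass, BNIP3 (-0.40), SOD2 (-0.27) and SESN1 (-0.20) had negative changes. Over 3 to 12 h 4 rose and 1 fell, SOD2 (-1.02, limma adjusted p = 0.0176), where 5.63% of all tested genes were called. Over 24 to 72 h 2 rose and 0 fell, where 4.09% were called. With a time left out these counts ranged from 0 to 7 and from 0 to 3. For the slope with time, on averages of both media, 9 of the 19 rose and 1 fell by limma, where 24.7% were called. PDK4, a kinase that turns down glucose oxidation, measured 123.68, 167.43, 129.17, 175.87, 339.26 and 293.55 RPKM in CAF medium, against 44.05, 53.53, 81.21, 73.93, 202.30 and 241.68 RPKM in control medium, and was higher at 6 of 6 times (limma adjusted p = 0.0133). BCL6, a transcriptional repressor, measured 6.57, 7.89, 5.57, 9.61, 28.02 and 21.92 RPKM in CAF medium, against 3.47, 3.21, 3.88, 4.64, 10.48 and 15.77 RPKM in control medium (limma adjusted p = 0.0121).

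The FOXO list was chosen with the change of TXNIP already known, and its genes answer to many other signals. The count of 7 was 5 without the 3 h pair, 1 without 6 h, 2 without 12 h, 3 without 24 h, 4 without 48 h and 7 without 72 h, and it was 0 with no filter on low values and without the time term. TXNIP alone passed without any 1 of the times (limma adjusted p at most 0.0414).

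**Figure D5:**
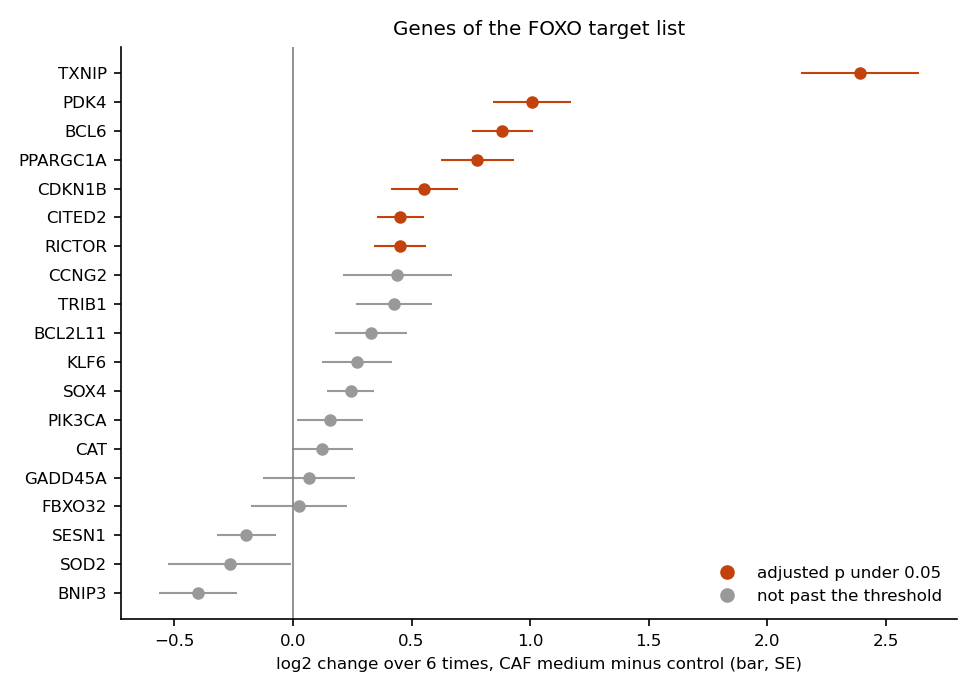
Log2 change over the 6 times, CAF medium minus control (x axis, bars SE), of the 19 tested genes of the FOXO target list (y axis), with genes past an adjusted p of 0.05 in red and the others in grey. The 7 genes past the threshold all lie above 0, with TXNIP at 2.39.

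For the 3 members with the largest spread over the 12 libraries, the tested genes with the most similar pattern were found by Pearson correlation of log2(RPKM + 0.5). IGFBP4 was most like LTBP4 (r = 0.985), MAGED1 (0.984) and WDR59 (0.98). IGFBP3 was most like SBDSP1 (0.937), AP5Z1 (0.93) and TMX4 (0.924), and IGFBP1 most like PECR (0.849), NKIRAS2 (0.844) and RDH10 (0.839). The 12 libraries share times and media, so these values are a description of the pattern and carry no p.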

How the data were processed

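A549 mRNA and small RNA were sequenced from 12 libraries per assay. The small RNA libraries were not used here. The deposited RPKM values are the authors' normalized level per gene length and mapped read, with 2 decimals, and the deposited table also gives gene model lengths, which the authors set. The submitters' processing notes name TopHat2, edgeR and hg19, with no role. The sources used here do not give the use of strand, the handling of multi-mapped reads, or how the 2 biological replicates of the design text were joined. All value columns have a sample (0 without).

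RPKM are not counts, so log2(RPKM + 0.5) was fitted with limma 3.58.1 in R 4.3.3 (trended variance, two-sided moderated test), for the 12029 of 22026 genes whose mean reached 1 RPKM. Time was a factor with 6 levels, pairing the libraries of a time by their label, which left 5 residual degrees of freedom over the 6 times and 4 for the early (3 to 12 h) and late (24 to 72 h) effects, their difference and the slope on log2 hours. Single times have no replicate and no test, and are described past a log2 of 1. The fits were tested on simulated data. Depth came from the whole-read steps of RPKM in gene models under 400 bases (whole within 0.1 reads). Exact Poisson intervals cover counting error only, and p-values rest on few degrees of freedom.

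All 10 members are named. Other genes come from lists (IGF pathway, FOXO targets, and epithelial, fibroblast, endothelial and blood, proliferation and hypoxia markers), of which those called or of a stated role are given. 1 listed gene is counted but not reported here. The members and lists were chosen with earlier results of these data known. Alternatives were the pseudocount, the filter, median centring, quantile normalization, no time term, 12 separate points for the slope, and each time left out.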

Additional observations from a re-analysis of the deposited data

Results flagged for a closer look

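In 5 of 76 sets of 6 values the highest value stood apart from the others, each time for a gene in 1 medium. The sets were genes in 1 medium, the IGFBP4 to IGFBP3 ratio and the IGFBP sum in 1 medium, and the log2 differences of a member. Chance alone gives about 1 in 20 for values without a trend. As these values follow time and many of the genes were called, that share is only a rough guide. IGFBP7 was 253.06 RPKM in CAF medium at 72 h, where the next was 171.07 RPKM. IGFBP6 was 83.68 RPKM in control medium at 48 h, where the next was 50.52 RPKM. FOXO1 was 5.27 RPKM in CAF medium at 48 h, with the next at 3.51 RPKM, and CITED2 was 14.48 RPKM in the same library, with the next at 8.81 RPKM. TXNIP was 21.67 RPKM in control medium at 72 h, where the next was 6.81 RPKM.

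Limma called a late minus early difference of the CAF medium effect for 2 listed genes, where 0.416% of the 12029 tested genes were called. STC2 had a difference of log2 1.50 (limma adjusted p = 0.0385). SOD2, a mitochondrial superoxide dismutase, also had a difference of log2 1.50 (limma adjusted p = 0.0385), with changes of 0.48 at 24 to 72 h (limma adjusted p = 0.149) and -1.02 at 3 to 12 h (limma adjusted p = 0.0176). Both differences were lost without 3, 6, 12, 48 or 72 h, and also with no filter on low values and without the time term.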

How the results depend on the processing

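With no filter on low values the number of members called was 0 in the comparison of all times, the early (3 to 12 h) and the late (24 to 72 h) one, where limma called 0, 0 and 36 of all genes (4744 of 22026 at an unadjusted p under 0.05 over the 6 times). With no replicate block, that is without the time term that pairs the libraries of a time, it was again 0 in these 3 comparisons, with 0, 13 and 0 of all genes called; over the 6 times 1691 genes and 4 members had an unadjusted p under 0.05. Over 24 to 72 h it was 0 with a pseudocount of 0.1, where IGFBP4 had an adjusted p of 0.0515. Leaving out each time in turn gave 0 to 4 members for all times, 0 to 4 for the early, 0 to 1 for the late ones, 0 for the difference and 1 to 2 for the slope, and for all genes 34 to 1416, 0 to 1085, 31 to 543, 0 to 244 and 798 to 3487; fewer pairs leave fewer degrees of freedom. For the difference all genes had 0 calls with no filter and 0 with no time term. Members that changed sign when a time was left out were not called in that comparison before or after. Over the 6 times these were IGFBP1 (0.118 without 24 h) and IGFBP6 (0.087 without 48 h). For 3 to 12 h they were IRS2 (-0.036 without 6 h, -0.104 without 12 h), IGFBP1 (-0.001 without 6 h), and without 12 h IGF2R (0.068), IRS1 (0.113) and IGFBP6 (-0.014). For 24 to 72 h they were IGFBP1 (0.042 without 24 h) and IGFBP6 (0.005 without 48 h). For the late minus early difference they were IRS1 (0.018 without 3 h, 0.009 without 48 h), IGFBP7 (0.032 without 3 h, 0.001 without 6 h) and IGFBP4 (0.023 without 12 h, 0.011 without 72 h). For the slope they were IRS2 (-0.012, -0.016 and -0.044 without 6, 12 and 48 h) and IRS1 (0.017 without 72 h), with IGF2R at 0 without 72 h. IRS2, which was not called, also changed sign over 3 to 12 h with median centring (-0.025) and quantile normalization (-0.019), and in its slope (-0.021 and -0.019). With 12 separate points IGFBP7 passed for the slope (adjusted p = 0.0423). The slope calls over all genes were 1811 up and 1157 down, against 1499 and 1624 with median centring and 1440 and 1548 with quantile normalization. The cause of these shifts was not tested. Every member had at least 149 implied reads in each library. For IGFBP1 in CAF medium at 12 h that count gave 3.36 RPKM, with a counting interval of 2.84 to 3.94 RPKM. The lowest level, 1.10 RPKM for INSR in control medium at 6 h, had 255 implied reads and an interval of 0.969 to 1.243 RPKM.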
